A study of Homo sapiens with 6 samples.

Results

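The genes described here encode FKBP51 and the cytosolic HSP90 chaperone machine, 10 genes chosen by name among the 11848 gene names of the transcript table. They are FKBP5, FKBP4, FKBP8, HSP90AA1, HSP90AB1, PTGES3, STIP1, AHSA1, CDC37 and CHORDC1, and every listed transcript that carries one of these names was taken, 42 of 29091 transcripts in all. RNA-seq was run on LNCaP-AI, an androgen-independent line that grew out of the human prostate cancer line LNCaP during long culture in charcoal-stripped serum. Of 6 samples, 3 carried an shRNA that targets PCAT1, a long non-coding RNA (shPCAT1), and 3 a scramble shRNA (shSCR), and all 6 carry the androgen-deprived background. The sources used here do not give the promoter of the shRNA constructs for these samples or say whether the cells were clonal. The labels number the replicates without saying that they came from separate cultures, so each p-value covers only how far these samples spread, and that spread may be technical.

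HSP90 is an ATP-driven chaperone that finishes the folding of steroid receptors, kinases and other client proteins. STIP1 (HOP) hands clients over from HSP70, CDC37 brings in kinases, AHSA1 speeds the ATPase, PTGES3 (p23) holds the closed state, and CHORDC1 is a further HSP90-binding protein. FKBP5 encodes FKBP51 and FKBP4 encodes FKBP52, immunophilins that dock on the same end of HSP90. In steroid receptor complexes FKBP51 lowers and FKBP52 raises hormone response, and FKBP5 is itself a classic androgen-induced gene in prostate cells. FKBP8 (FKBP38) is an immunophilin of the mitochondrial outer membrane. The study examined FKBP51 as a protein that binds the phosphatase PHLPP and the kinase IKKα. The comparison asked here is whether the mRNAs of FKBP51 and of the machine it docks on differ between the samples that received the 2 shRNAs.

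HSP90 genes are known targets of the heat shock factor HSF1, which binds inverted repeats of the unit nGAAn. To show what the promoters of the members hold, 14 RefSeq start windows (GRCh38.p14, 250 bases before to 50 after the start) were matched for 8 of the 10 members, and none was matched for FKBP4 or FKBP8. The motif of 2 units, GAANNTTC or TTCNNGAA, each of which reads the same on both strands, stood in 13.5% of 35116 windows of this kind. The motif of 3 units, which is either of these with NN and 1 more inverted unit (GAA or TTC) after it, contains the motif of 2 units and stood in 0.49%. Of the members' windows, 3 held 3 units, and they belonged to 3 genes, CHORDC1, HSP90AA1 and HSP90AB1. Shown next are the 250 bases before these starts and before the far upstream start of HSP90AA1, which held neither motif, 5′ to 3′, with matches to either motif in capitals.
CHORDC1, chr11:90223050-90223299, minus strand: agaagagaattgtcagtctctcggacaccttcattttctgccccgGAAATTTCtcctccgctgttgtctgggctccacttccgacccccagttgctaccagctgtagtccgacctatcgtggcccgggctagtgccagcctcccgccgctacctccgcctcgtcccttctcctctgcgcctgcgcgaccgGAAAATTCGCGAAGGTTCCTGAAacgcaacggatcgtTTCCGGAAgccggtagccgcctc
HSP90AA1, downstream start, chr14:102087045-102087294, minus strand: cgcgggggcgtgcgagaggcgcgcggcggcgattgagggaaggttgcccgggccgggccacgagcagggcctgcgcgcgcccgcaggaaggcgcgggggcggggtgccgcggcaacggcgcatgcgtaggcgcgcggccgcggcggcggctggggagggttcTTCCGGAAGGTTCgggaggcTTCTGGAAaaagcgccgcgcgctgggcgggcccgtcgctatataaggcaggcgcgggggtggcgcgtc
HSP90AA1, upstream start, chr14:102139750-102139999, minus strand: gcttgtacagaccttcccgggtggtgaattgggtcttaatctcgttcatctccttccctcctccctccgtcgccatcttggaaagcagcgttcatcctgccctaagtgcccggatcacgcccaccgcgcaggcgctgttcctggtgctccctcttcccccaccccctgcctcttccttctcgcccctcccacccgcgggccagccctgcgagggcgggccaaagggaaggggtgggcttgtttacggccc
HSP90AB1, the third start, chr6:44247693-44247942, plus strand: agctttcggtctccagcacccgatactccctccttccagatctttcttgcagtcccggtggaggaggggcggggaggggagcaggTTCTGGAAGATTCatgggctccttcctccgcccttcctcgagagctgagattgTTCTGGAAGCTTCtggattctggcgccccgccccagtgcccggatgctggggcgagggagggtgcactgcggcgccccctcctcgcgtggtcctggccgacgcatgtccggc
In CHORDC1 the matches of 3 units overlap and begin 60, 55 and 50 bases before the start. In HSP90AA1 the match of 3 units begins 88 bases before the downstream start, and in HSP90AB1 the matches begin 165 and 112 bases before the third start. The windows of the other HSP90AB1 starts, which lie upstream of that one, held neither motif. A match is a description of letters, and binding was not measured here.

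The unit is FPKM, read fragments scaled by transcript length and by the mapped reads of the library, and a gene's level is the sum over its listed transcripts. Sums of listed FPKM were 263353 to 264179 in shPCAT1 and 267242 to 303477 in shSCR, and the sequencing depth is unknown. The targeted PCAT1 RNA was not analysed here. Replicate 3 of shSCR was unlike the rest: across genes its Pearson r with the other libraries was 0.809 to 0.845, against 0.910 to 0.946 among the other 5, and it listed 4925 transcripts at 0, against 1428 to 1987 in the others. Its difference from the other shSCR samples ran with GC content (Spearman rho = 0.581 across 10596 genes, which are not independent replicates), so values without it are given beside results that it moves by over 1.5 times or whose call it changes. All 9 prostate luminal markers were listed, with summed levels of 1017 to 1189 FPKM in shPCAT1 and 1280 to 1862 FPKM in shSCR. Of the fibroblast markers 2 of 5 were listed, at 2.55 to 4.44 FPKM in shPCAT1 and 6.85 to 12.9 FPKM in shSCR, and of the immune markers 1 of 5 (CD68), at 2.58 to 15.2 FPKM in shPCAT1 and 5.14 to 21.1 FPKM in shSCR. Of the neuroendocrine markers 2 of 6 were listed, ENO2 and SYP, at 16.1 to 21.8 FPKM in shPCAT1 and 21.0 to 27.8 FPKM in shSCR. Of this SYP had at most 0.980 FPKM in any sample. The listed basal and endothelial markers summed to at most 2.51 and 1.34 FPKM in any sample. The part of these markers in the results was not tested.

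By limma on log2(FPKM + 1), 0 of the 10 members passed the threshold, a Benjamini-Hochberg adjusted p no greater than 0.05, against 0.878% of the 10825 genes tested. At an unadjusted p of at most 0.05 there were 4 members, HSP90AA1, HSP90AB1 and CHORDC1 above and CDC37 below, against 17.2% of all genes. The same 4 were the members whose groups did not overlap, 3 higher (14.8% of all genes) and 1 lower (17.7%). These counts are descriptions of a chosen set. The median log2 change of the 10 members was 0.21, beside -0.05 for all genes tested. Leaving out shSCR replicate 3, 2 members were called, FKBP4 and HSP90AA1, against 8.03% of all genes. With upper quartile or quantile scaling 0 were called, and the groups of CDC37 then overlapped. Under either scaling 6 members were higher without overlap and 0 lower, and the share of all genes without overlap was not counted there. The median of the members was 0.31 with upper quartile and 0.32 with quantile scaling, beside 0.034 and 0.027 for all genes.

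**Figure D1:**
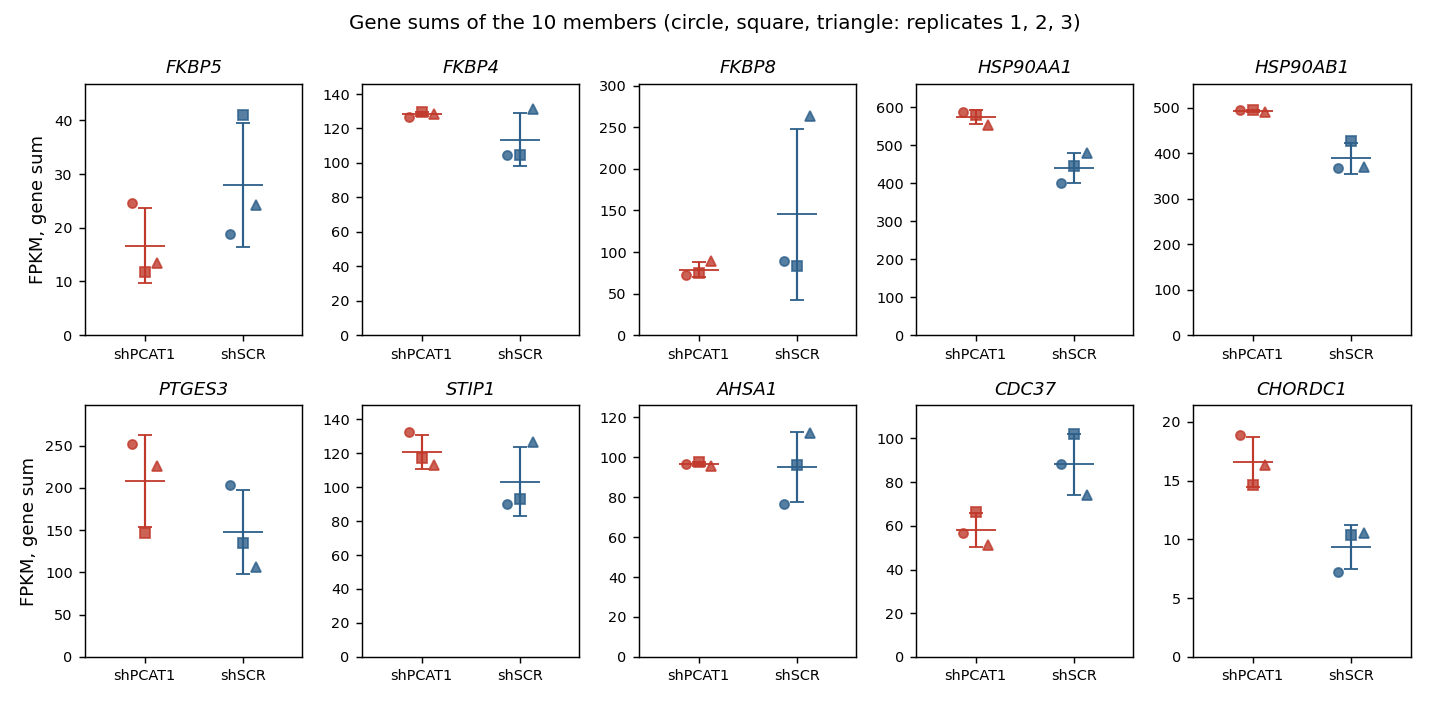
Gene sums of FPKM (vertical axes, from 0) of the 10 members in shPCAT1 (red) and shSCR (blue), with a circle, square or triangle for replicates 1, 2 and 3, a line for the mean and bars for 1 SD (n = 3 each). In HSP90AA1, HSP90AB1 and CHORDC1 every shPCAT1 sample is above every shSCR sample, in CDC37 every one is below, and shSCR replicate 3 of FKBP8 stands at 264 FPKM.

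The chaperones themselves were among the most abundant mRNAs, and both cytosolic paralogs were higher in every shPCAT1 sample. HSP90AA1, the stress-inducible HSP90α, had 588, 581 and 553 FPKM in shPCAT1, against 399.7, 445 and 479 FPKM in shSCR. HSP90AB1, the constitutive HSP90β, had 494, 495 and 489.7 FPKM in shPCAT1, against 368, 427 and 370.3 FPKM in shSCR. For both genes the lowest shPCAT1 sample lay above the highest shSCR sample. HSP90AA1 averaged 574 ± 18.5 FPKM in shPCAT1 and 441 ± 39.6 FPKM in shSCR, and HSP90AB1 averaged 493 ± 2.68 FPKM in shPCAT1 and 388 ± 33.5 FPKM in shSCR (SD, n = 3 each). The log2 change was 0.38 (SE 0.11, adjusted p = 0.192) for HSP90AA1 and 0.35 (SE 0.11, adjusted p = 0.212) for HSP90AB1. Without shSCR replicate 3, HSP90AA1 was called (0.44, SE 0.07, adjusted p = 0.0353) and HSP90AB1 was not (0.31, SE 0.08, adjusted p = 0.0853).

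Added together, the cytosolic HSP90 mRNAs came to 1082, 1075 and 1043 FPKM in shPCAT1 and to 767, 872 and 849 FPKM in shSCR. The ratio of HSP90AA1 to HSP90AB1 was 1.19, 1.17 and 1.13 in shPCAT1, against 1.09, 1.04 and 1.29 in shSCR. The difference of the log2 ratios was 0.04 (exact permutation test, two-sided, p = 0.9), where 3 samples against 3 cannot give a p below 0.1. Without shSCR replicate 3 it was 0.13, with groups that did not overlap. In bulk samples a higher level in each cell and a larger share of cells with it cannot be told apart.

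FKBP5, the gene of FKBP51, had 24.6, 11.8 and 13.4 FPKM in shPCAT1, against 18.9, 41.0 and 24.2 FPKM in shSCR. The groups overlapped, since shPCAT1 replicate 1 was above 2 of the shSCR samples, and both groups spread widely (16.6 ± 6.99 FPKM in shPCAT1 and 28.0 ± 11.6 FPKM in shSCR, SD, n = 3 each). The log2 change was -0.72 (SE 0.38, adjusted p = 0.383), and it was -0.42 without shSCR replicate 2, the highest sample, and -1.02 without shPCAT1 replicate 1. The transcript FKBP5-001 (chr6:35541367-35656714, minus strand, 11 exons, hg19) held 83.6% to 97.7% of the gene in each sample, and it has no stretch of 50 bases, the read length, that is absent from the other listed transcripts.

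FKBP4, the FKBP52 gene, spread little within shPCAT1. It had 127, 129.5 and 128 FPKM in shPCAT1, against 105, 105 and 131 FPKM in shSCR, so that shSCR replicate 3 lay above the shPCAT1 samples and the other shSCR samples below them. The log2 change was 0.18 (SE 0.14, adjusted p = 0.520), and 0.29 (SE 0.05, adjusted p = 0.0420) without that library, where FKBP4 was called. The ratio of FKBP5 to FKBP4 was 0.200, 0.0977 and 0.112 in shPCAT1, against 0.188, 0.397 and 0.191 in shSCR. The difference of the log2 ratios was -0.90 (-2.95 ± 0.55 in shPCAT1 and -2.04 ± 0.62 in shSCR, SD, n = 3 each; exact permutation p = 0.3, two-sided), and the groups overlapped. After GC correction it was -1.16, with an exact permutation p = 0.1, the smallest that 3 against 3 can give. Without shPCAT1 replicate 1 it was -1.22, again at an exact p = 0.1, the smallest that 2 against 3 can give, and without shSCR replicate 2 it was -0.55 (exact p = 0.4).

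The difference in FKBP8 rested on 1 library. It had 72.3, 75.3 and 88.9 FPKM in shPCAT1, against 89.1, 82.8 and 264 FPKM in shSCR. The log2 change was -0.66 (SE 0.46, adjusted p = 0.484) with all samples and -0.13 (SE 0.11, adjusted p = 0.516) without shSCR replicate 3. FKBP8 has the highest GC content of the members, 66.1%, beside a median of 48.5% over all genes.

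Among the co-chaperones, CHORDC1 and CDC37 stood apart in opposite directions. CHORDC1 had 18.9, 14.7 and 16.3 FPKM in shPCAT1, against 7.21, 10.4 and 10.5 FPKM in shSCR, a ratio of means of 1.77 and a log2 change of 0.78 (SE 0.20, adjusted p = 0.155). CDC37, the kinase co-chaperone, had 56.6, 66.4 and 51.3 FPKM in shPCAT1, against 88.1, 102 and 74.2 FPKM in shSCR, a log2 change of -0.59 (SE 0.18, adjusted p = 0.200). In neither gene did the groups overlap, and neither was called. Without shSCR replicate 3 the adjusted p was 0.0720 for CHORDC1 and 0.0583 for CDC37.

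The other co-chaperones overlapped between the groups. PTGES3 had 252, 147 and 225 FPKM in shPCAT1, against 203, 135 and 107 FPKM in shSCR (log2 change 0.50, SE 0.31, adjusted p = 0.439), and it was 0.29 without shSCR replicate 3. STIP1 had 132, 117 and 113 FPKM in shPCAT1, against 90.4, 93.1 and 127 FPKM in shSCR (log2 change 0.24, SE 0.18, adjusted p = 0.502). AHSA1 had 96.6, 97.4 and 95.6 FPKM in shPCAT1, which lay inside the range of 76.8, 96.3 and 112 FPKM in shSCR (log2 change 0.04, SE 0.17, adjusted p = 0.917). STIP1 without shSCR replicate 3 stood at 0.39 and AHSA1 at 0.17, neither called.

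**Figure D2:**
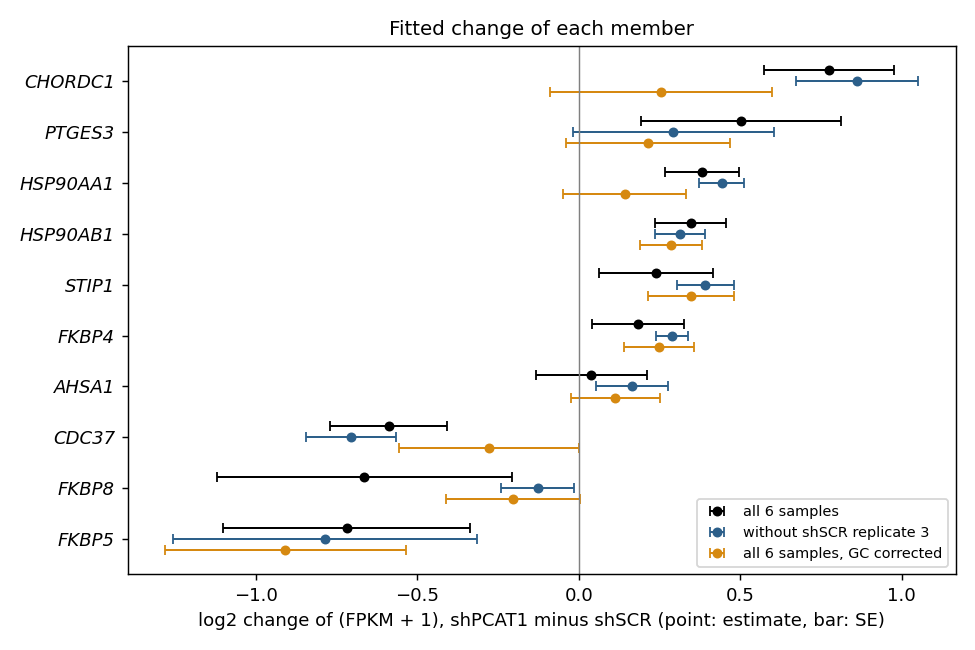
Fitted log2 change of (FPKM + 1), shPCAT1 minus shSCR (horizontal axis), of each member, with bars of 1 SE, for all 6 samples (black), without shSCR replicate 3 (blue) and after GC correction (orange). CHORDC1 has 0.78 with all samples and 0.26 after GC correction, while FKBP5 has -0.72 and -0.91.

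In level per length, the 3 most abundant members were HSP90AA1, HSP90AB1 and PTGES3 in both groups, and the 2 least abundant were FKBP5 and CHORDC1. In shPCAT1 the order ran HSP90AA1, HSP90AB1, PTGES3, FKBP4, STIP1, AHSA1, FKBP8, CDC37, CHORDC1 and FKBP5, and the neighbours that overlapped between samples were FKBP4 with STIP1 and CHORDC1 with FKBP5. In shSCR the order ran HSP90AA1, HSP90AB1, PTGES3, FKBP8, FKBP4, STIP1, AHSA1, CDC37, FKBP5 and CHORDC1. There HSP90AA1 overlapped HSP90AB1, and each neighbour from PTGES3 to CDC37 overlapped the next. The place of FKBP8 in the shSCR order rested on replicate 3, at 264 FPKM. In shSCR replicates 1 and 2 it had 89.1 and 82.8 FPKM and lay below FKBP4 and STIP1. FPKM is per length, but it is not corrected for GC content or for sequence shared with other genes. The order of these levels between genes is therefore a description.

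Over all genes the log2 change ran with GC content (rho = -0.532 with all samples, and -0.252 without shSCR replicate 3). CHORDC1 has the lowest GC content of the members, 34.3%, and CDC37, at 60.0%, and FKBP8 the highest. After a correction of each sample for GC content, 0 members were called and the log2 changes were 0.26 for CHORDC1, 0.14 for HSP90AA1, 0.21 for PTGES3, -0.28 for CDC37 and -0.20 for FKBP8. HSP90AB1, at 0.29, and FKBP5, at -0.91, moved less. With GC correction and without shSCR replicate 3, 1 member was called, FKBP4 (0.33, SE 0.05, adjusted p = 0.0388), and HSP90AA1 had 0.35 (adjusted p = 0.0550). These are the values with the trend removed, and the part of GC content in the changes was not tested in another way.

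**Figure D3:**
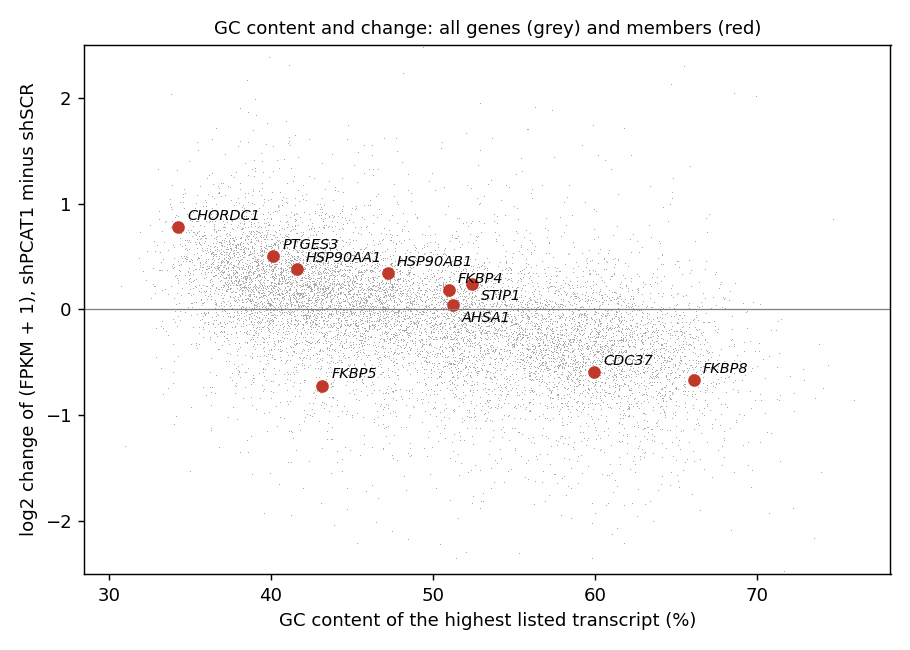
Log2 change of (FPKM + 1), shPCAT1 minus shSCR (vertical axis), against GC content in percent (horizontal axis) of the genes with a GC value (grey points, 34 genes lie outside the range shown) and the 10 members (red). The grey cloud slopes downwards to the right, CHORDC1 is at the upper left, CDC37 and FKBP8 are at the lower right, and FKBP5 lies below most grey points of its GC content.

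By transcript, 33 of the 42 passed the filter of a mean of at least 1 FPKM, and 0 were called, against 0.0977% of all 20474 transcripts tested. HSP90AA1-001, CDC37-004 and CHORDC1-011, 3 of the 33, reached an unadjusted p of 0.05 or less, beside 1935 of all 20474 transcripts. Groups did not overlap for 4 transcripts higher (11.3% of all transcripts) and for 2 lower (11.2%). Without shSCR replicate 3, 0 were called, against 0.420% of all. FPKM was apportioned by the authors between isoforms that share most of their bases, so a transcript's value is less certain than its gene's.

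HSP90AA1-001 (chr14:102547386-102606023, minus strand, 12 exons, hg19) had the largest log2 change of these transcripts with a pseudocount of 1 and all samples, and with a pseudocount of 0.1 that of CDC37-004 was larger (-2.95, beside 2.72). It begins at the upstream start of the gene, 52495 bases before HSP90AA1-002, and had 95.0, 70.9 and 81.7 FPKM in shPCAT1, against 9.69, 23.3 and 8.28 FPKM in shSCR. The log2 change was 2.63 (SE 0.40, adjusted p = 0.154), and the groups lay far apart. Its share of the gene was 12.2% to 16.2% in shPCAT1 and 1.73% to 5.24% in shSCR (exact permutation p = 0.1, the smallest that 3 against 3 can give). HSP90AA1-002, which begins at the downstream start, had 489.7, 506 and 467 FPKM in shPCAT1, against 388, 420 and 465 FPKM in shSCR (0.20, adjusted p = 0.625). HSP90AA1-010 (chr14:102568275-102606036, 2 exons) also begins at the upstream start, and its groups overlapped. It had 1.35, 0.796 and 1.62 FPKM in shPCAT1, against 0.302, 0.308 and 2.20 FPKM in shSCR (0.34 with all samples, adjusted p = 0.772). The overlap came from shSCR replicate 3 alone, since the other shSCR values lay below every shPCAT1 value.

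The reads that could tell these HSP90AA1 transcripts apart are few. Only 161 of the 3461 stretches of 50 bases in HSP90AA1-001, 4.65%, are in no other listed transcript of the same gene, and 17.5% are also in another gene of the annotation, such as the pseudogene HSP90AA2P. For HSP90AA1-002 the shares are 9.66% and 19.1%, and for HSP90AB1-003 they are 1.80% and 19.7%. Of the RefSeq windows printed earlier, the one at the upstream start held no match and the one at the downstream start held 3 units. In HSP90AB1 the third start, whose window held 3 units, is that of HSP90AB1-005, which made up 0.994% to 6.85% of its gene. HSP90AB1-003, at 71.3% to 98.1% of the gene, begins at the start before it, whose window held no match. The windows were set against the transcripts by their order along the gene, not by a change of build.

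Other transcripts moved between isoforms within a gene. CDC37-004 had 0.913, 1.77 and 17.8 FPKM in shPCAT1, against 25.2, 22.8 and 26.9 FPKM in shSCR (log2 change -2.48, SE 0.85, adjusted p = 0.483), a set without overlap in which shPCAT1 replicate 3 differed from the other shPCAT1 samples. CDC37-001, the larger part of the gene, had 54.3, 63.0 and 30.6 FPKM in shPCAT1, against 60.1, 76.0 and 35.2 FPKM in shSCR. STIP1-001 made up 25.7%, 85.4% and 86.6% of its gene in shPCAT1, against 39.2%, 84.7% and 43.7% in shSCR, which is an exchange with STIP1-003 that splits samples of the same group. CHORDC1-011 had 1.83, 3.07 and 3.83 FPKM in shPCAT1, against 1.12, 0.661 and 0.136 FPKM in shSCR (1.27, adjusted p = 0.428). HSP90AB1-003 was higher in every shPCAT1 sample, at 454, 461 and 441 FPKM, against 359, 419 and 264 FPKM in shSCR (0.41, and 0.22 without shSCR replicate 3), while HSP90AB1-201 reached 66.1 FPKM in shSCR replicate 3 alone. FKBP8-016 was lower in each shPCAT1 sample (log2 change -0.83, adjusted p = 0.574), and the change was -0.35 without shSCR replicate 3, whose 87.1 FPKM stood against 33.1 and 30.3 FPKM in the other shSCR samples.

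**Figure D4:**
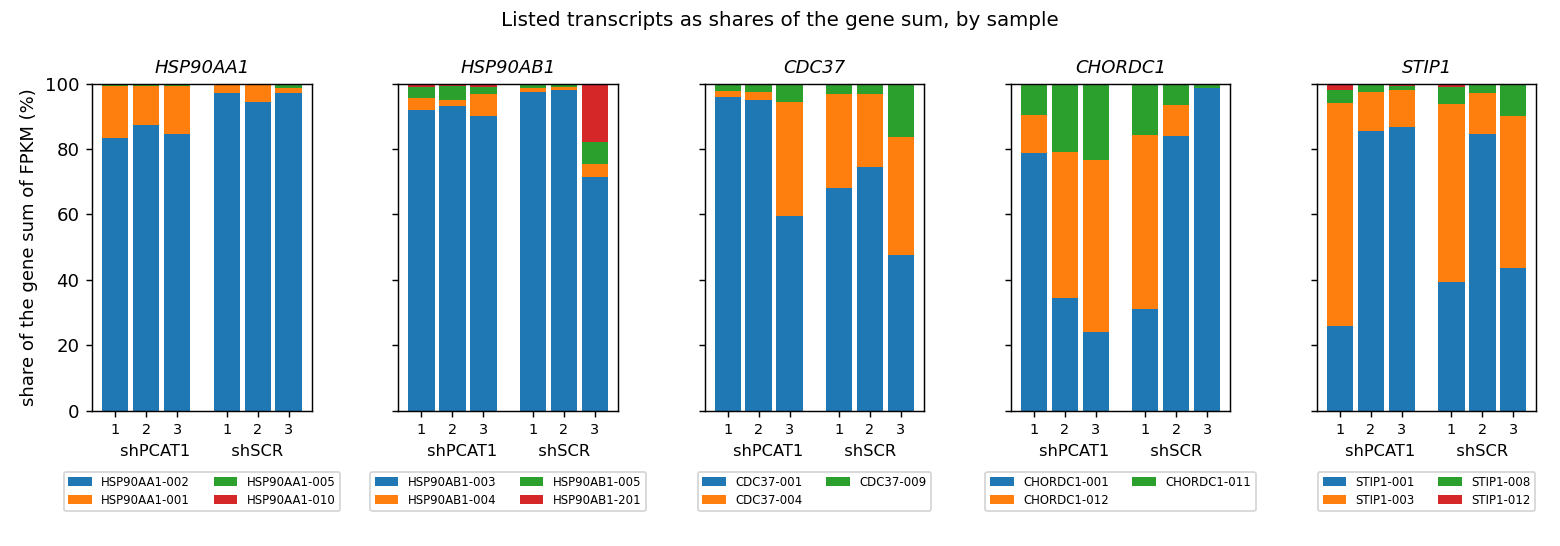
Listed transcripts as shares of the gene's FPKM sum in percent (vertical axis, stacked colours) in each sample, with shPCAT1 replicates 1 to 3 left of shSCR replicates 1 to 3. HSP90AA1-001 (orange) has 12.2% to 16.2% in shPCAT1 and 1.73% to 5.24% in shSCR, and in STIP1 and CHORDC1 the leading transcript changes between replicates of the same group.

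The wider chaperone system was described by lists. Of 28 tested HSP90 co-chaperones other than the members, 0 were called by limma and 5 reached an unadjusted p of 0.05 or less, 17.9% beside 17.2% of all genes. In this list 11 genes lay above 0 and 17 below, and the median log2 change was -0.17, or -0.097 without shSCR replicate 3, beside -0.05 and -0.012 for all genes. RPAP3 was called higher without that library (adjusted p = 0.0215), 3.57% of the list beside 8.03% of all genes. FLCN, an HSP90 client listed here with its co-chaperone partners FNIP1 and FNIP2, had -0.96 (adjusted p = 0.131), RPAP3, of the R2TP complex, 0.83 (adjusted p = 0.145) and AHSA2, a relative of AHSA1, -0.90 (adjusted p = 0.214). The HSP90 paralogs of other compartments differed in sign, HSP90B1 of the endoplasmic reticulum at 0.32 and TRAP1 of mitochondria at -0.54. Neither was called with all samples, both reached an unadjusted p of 0.05 or less, and TRAP1 was called lower without shSCR replicate 3 (-0.41, adjusted p = 0.0296).

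Of 31 tested HSP70, HSP110 and J-domain chaperones, 0 were called, 6 reached an unadjusted p of 0.05 or less (19.4%, beside 17.2% of all genes), 22 lay above 0 and 9 below. The median was 0.22, and after GC correction it was -0.0037. DNAJA1, DNAJC3, HSPA8 and HSPH1, 4 in all, were called higher without shSCR replicate 3, which is 12.9% beside 8.03% of all genes. HSPA8, the constitutive HSP70, had 508, 524 and 522 FPKM in shPCAT1, against 274, 355 and 373 FPKM in shSCR (0.64, adjusted p = 0.128), the largest of these genes in level. HSPH1, an HSP110 nucleotide exchange factor, had 0.81 (adjusted p = 0.128) and DNAJC3 0.80 (adjusted p = 0.244), or 0.50 without shSCR replicate 3. HSPA1B is a near-identical copy of HSPA1A, between which short reads can be split, and was listed at 0 in shSCR replicate 1.

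Of 27 tested heat shock factors and heat shock response genes, which include 7 of the members, 0 were called. In this list 6 reached an unadjusted p of 0.05 or less (22.2%, beside 17.2% of all genes). All of them were already counted: CHORDC1, HSP90AA1 and HSP90AB1 as members, HSPA8 and HSPH1 with the HSP70 chaperones and CACYBP with the co-chaperones. This share is therefore no separate result. Of its genes 19 lay above 0 and 8 below, with a median of 0.23. Leaving out shSCR replicate 3, the median was 0.29 with 5 higher and 1 lower call, 22.2% of the list beside 8.03% of all genes. The 5 were DNAJA1, FKBP4, HSP90AA1, HSPA8 and HSPH1, and the lower one was CRYAB, a small heat shock protein. Each of these is also a member or in another of the lists. Among 20 small heat shock proteins and chaperonins 0 were called and 4 reached an unadjusted p of 0.05 or less (20.0%, beside 17.2% of all genes). Without shSCR replicate 3 HSPB8 was called higher and CRYAB lower, 10.0% of the list beside 8.03% of all genes. With all samples the lowest adjusted p were those of HSPB8 (0.78, adjusted p = 0.0863), CCT6A (0.56, adjusted p = 0.200) and PFDN2 (0.58, adjusted p = 0.206). HSF1 itself had 35.7, 26.3 and 38.4 FPKM in shPCAT1, against 29.7, 43.3 and 72.6 FPKM in shSCR (-0.45, adjusted p = 0.518, and -0.12 without shSCR replicate 3).

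Of 9 other FK506-binding proteins tested, 4 reached an unadjusted p of 0.05 or less (44.4%, beside 17.2% of all genes). FKBP9, a relative in the endoplasmic reticulum, was the one gene called with all samples. It had 5.84, 5.48 and 5.17 FPKM in shPCAT1, against 19.0, 15.2 and 13.0 FPKM in shSCR, a log2 change of -1.35 that passed the threshold (adjusted p = 0.0418, SE 0.18). FKBP9 has a near-identical pseudogene, so reads can be split between copies. It was also called without shSCR replicate 3 (adjusted p = 0.0158). The call was lost when any other single sample was left out (adjusted p of 0.105 to 0.228), with upper quartile (0.0761) or quantile scaling (0.0594), and with the replicate block (0.224, or 0.203 with GC correction added). FKBP10 had -0.68 (adjusted p = 0.192) and FKBP11 0.97 (adjusted p = 0.237). Both were called without shSCR replicate 3, FKBP10 lower (-0.48, adjusted p = 0.0319) and FKBP11 higher (0.60, adjusted p = 0.0268), so that 3 of the 9 were then called, 33.3% beside 8.03% of all genes.

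Among HSP90 clients, 0 of 21 tested were called and 7 reached an unadjusted p of 0.05 or less (33.3%, beside 17.2% of all genes). AHR, CHEK1 and EGFR were called higher and IGF1R lower without shSCR replicate 3, 19.0% of the list beside 8.03% of all genes. The aryl hydrocarbon receptor gene AHR had 1.06 (adjusted p = 0.0829), EGFR 1.49 (adjusted p = 0.128) and IGF1R -0.61 (adjusted p = 0.133). Of 7 tested genes of the PHLPP, IKK and AKT families, which include but go beyond the partners the study examined, 0 were called. In this list 1 reached an unadjusted p of 0.05 or less (14.3%, beside 17.2% of all genes). That gene, IKBKB, the kinase IKKβ, had 1.91, 2.66 and 1.59 FPKM in shPCAT1, against 6.44, 6.56 and 6.03 FPKM in shSCR, a log2 change of -1.28 (SE 0.19, adjusted p = 0.0501), just outside the threshold. It was called without shSCR replicate 3 (-1.31, adjusted p = 0.0287). PHLPP2 had 0.29 (adjusted p = 0.412) and AKT1 -0.41 (adjusted p = 0.506). AKT1 had 46.9, 51.3 and 50.2 FPKM in shPCAT1, against 52.9, 50.7 and 108 FPKM in shSCR, and its change was -0.065 without shSCR replicate 3.

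**Figure D5:**
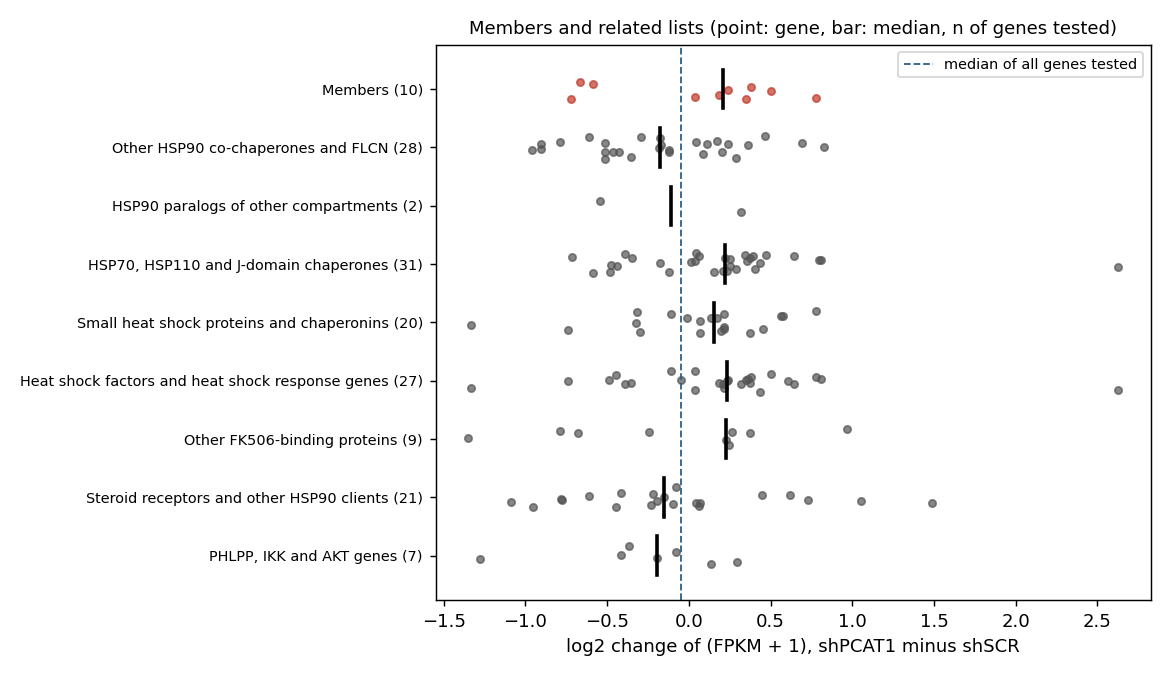
Log2 change of (FPKM + 1), shPCAT1 minus shSCR (horizontal axis), of the 10 members (red) and of the tested genes in 8 related lists (grey), with a black bar for each median and a dashed line at -0.05, the median of all genes tested. The medians of the HSP70 and heat shock lists are at 0.22 and 0.23, and that of the other co-chaperones, listed with FLCN, is at -0.17 (-0.097 without shSCR replicate 3). The heat shock list includes some of the members and genes of other lists.

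As a description, the genes most like FKBP5 over the 6 samples were sought among 7828 genes whose mean reached 5 FPKM. They were TTC32 (Pearson r = 0.983), TATDN3 (0.978), NAGK (0.970), QTRT2 (0.962) and ABHD2 (0.949). For HSP90AA1 they were BBS7 (0.997), PNN (0.995), DCAF1 (0.994), BICD1 (0.991) and STARD7 (0.990). The count of genes over 0.95 was 4 for FKBP5 and 55 for HSP90AA1. The samples share the design, and the GC trend of shSCR replicate 3 is part of these values.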

How the data were processed

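RNA-seq of 3 shPCAT1 and 3 shSCR samples of LNCaP-AI was used. The methods describe strand-specific libraries of poly(A) RNA and single reads of 50 bases. The submitters' processing notes name HISAT2 2.0.4, while the methods name another aligner, so it is not settled which was used. The deposited FPKM values per transcript were made by the authors on hg19, and every listed transcript is protein coding. Each listed transcript has a mean of at least 0.5 FPKM in 1 group or both, so gene sums leave out transcripts that are not listed. The deposited comparison columns (group means, fold changes, p and q values) were not used.

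FPKM were summed per gene name, put on log2(FPKM + 1), filtered at a mean of at least 1 FPKM and compared by limma 3.58.1 under R 4.3.3 (trend and robust), with no covariate and Benjamini-Hochberg adjustment over all genes, called at 0.05. A fold change on this scale understates low genes. Whole reads cannot be recovered from FPKM divided between isoforms, so the depth is not known and counting intervals are left out. DEGseq, named in the methods, needs counts and was not run. The alternatives were another pseudocount (0.1), other filters (none, 5), upper quartile and quantile scaling, a replicate block, a plain fit, GC correction and each sample left out. The alternatives for single transcripts and for FKBP9, and the GC correction of transcripts, were chosen after seeing the data. The named genes were the members, the called genes of each list and otherwise its 3 with the smallest p, and the 5 genes most like FKBP5 and HSP90AA1. HSPA1B, HSF1 and the genes called without shSCR replicate 3 were named after their values were seen. The members and lists were chosen with earlier results of these data known. Values of some list genes are not reported here. Promoter sequences are those of RefSeq (GRCh38.p14). Figures were drawn with matplotlib.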

Additional observations from a re-analysis of the deposited data

How the results depend on the processing

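The count of called members, 0 of 10, was the same under 14 of 16 alternatives. It was 1 with GC correction without shSCR replicate 3, an alternative chosen after seeing the data, and 0 to 2 when single samples were left out. The count of called transcripts of the members was 0 under every alternative run. The sign turned in 4 results: FKBP8 was at 0.0059 with GC correction without shSCR replicate 3, AHSA1 ran between -0.10 and 0.17 with single samples left out, HSP90AA1-002 was at -0.029 with GC correction, and the log2 ratio of HSP90AA1 to HSP90AB1 was -0.14 with GC correction and between -0.026 and 0.13 with single samples left out. The cause was not tested. The replicate numbers did not pair the samples (correlations of deviations -0.024, -0.014 and 0.021, and 1 of 3 numbers whose samples correlated best with each other), and with the replicate block 0 members and 2 of all genes were called, against 95 without it. Over all genes the calls were 56 with a pseudocount of 0.1, 53 with a filter at 5 FPKM, 157 with GC correction (649 without shSCR replicate 3 as well, 2 with the block as well), 869 without shSCR replicate 3 and 4 to 11 without any other sample. Of all transcripts 20 were called, against 9 with a pseudocount of 0.1, 13 with no filter, 5 with a filter at 5 FPKM, 0 with the replicate block, 86 without shSCR replicate 3, 66 with GC correction besides, and 1 to 10 without any other sample. Scaling moved the median log2 change of all genes by less than 0.1. Depth is unknown, and each group has 3 samples.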
